A study of Mus musculus with 3 samples.

Results

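The Wnt ligand genes examined here are Wnt1, Wnt3, Wnt3a, Wnt5a, Wnt7a, Wnt7b, Wnt8b, Wnt9a, Wnt9b and Wnt10b, to which 7 windows of the mouse genome (build mm9) were assigned. Every interval of 2 deposited peak lists that overlapped one of these windows by at least 1 bp was taken: 27 of the 11790 Ring1B peaks and 19 of the 11647 Zrf1 peaks. The peaks come from chromatin immunoprecipitation and sequencing (ChIP-seq) in mouse neural progenitor cells, which had been derived from E14TG2a embryonic stem cells and were grown in N2 medium with EGF and FGF2. One library was made with an antibody against Ring1B, one with an antibody against Zrf1, both antibodies raised in the submitting laboratory, and one with rabbit IgG as the control; the IgG library was not analysed here. The cells of all libraries carried no label of a genetic change or drug treatment. Each antibody had 1 library, so no value below has an error between replicates, and the read depth is unknown. The intervals give position and width only, so neither the cell type nor the activity of any gene could be checked against markers.

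Wnt proteins are secreted, lipid-modified signals that bind Frizzled receptors together with co-receptors such as Lrp5 and Lrp6. In the canonical branch this stabilises beta-catenin, which then acts with TCF/LEF factors on target genes, while other branches act on cell polarity and calcium. In the developing nervous system Wnt signals pattern the dorsal midline, the midbrain and the hippocampus and influence the expansion of progenitors, and many Wnt genes are known targets of Polycomb repression in stem cells. Ring1B (gene Rnf2) is the catalytic ubiquitin ligase of Polycomb repressive complex 1, which marks histone H2A, and Zrf1 (gene Dnajc2) is known to bind that ubiquitylated histone. The series was designed to set the DNA binding of both proteins side by side.

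The 7 windows came as pairs of neighbouring genes or as single genes. Wnt10b and Wnt1 shared chr15:98550000-98680000, Wnt9b and Wnt3 shared chr11:103540000-103720000, and Wnt3a and Wnt9a shared chr11:58990000-59170000. Wnt7b had chr15:85320000-85460000, Wnt8b chr19:44530000-44620000, Wnt7a chr6:91270000-91410000 and Wnt5a chr14:29270000-29400000. In the gene order of GRCm38.p6 the paired genes are direct neighbours among named protein-coding genes. The gene tables at hand are of GRCm38.p6 and not of mm9, so a peak is given to its window, not to a gene, exon, intron or start site, and that each window holds its named genes in mm9 was not checked. A window can also hold other genes: the flanking named genes are Arf3 and Ddn for Wnt10b and Wnt1, Gosr2 and Nsf for Wnt9b and Wnt3, and Arf1 and Prss38 for Wnt3a and Wnt9a. They are Atxn10 and Ppara for Wnt7b, Scd1 and Sec31b for Wnt8b, Fbln2 and Chchd4 for Wnt7a, and Erc2 and Cacna2d3 for Wnt5a.

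Polycomb repressive complex 1 is known in mammals for binding CpG-rich promoters, so the promoters of the ligands are shown first. RefSeq promoter sequences of GRCm38.p6, 300 bases around a start site, were at hand for 8 of the 10 genes. The CG dinucleotide, which reads the same on both strands, was counted in each. Over all 32851 promoters of the table the median was 7 (quartiles 3 and 20), and 94.6% held at least 1. The matched Wnt promoters held 58 (Wnt9a), 45 (Wnt3a), 42 (Wnt7a), 29 (Wnt9b), 26 (Wnt1), 24 (Wnt3), 18 (Wnt10b) and 6 (Wnt8b) CG dinucleotides, so 7 of the 8 lay above the median of the table. The share of all promoters with at least as many was 0.110% for Wnt9a, 3.03% for Wnt7a, 16.9% for Wnt1 and 56.4% for Wnt8b. These 4 are printed because they span that range and because their windows differ in the proteins found there: both proteins at Wnt9a and Wnt1, Zrf1 without Ring1B at Wnt7a, and Ring1B without Zrf1 at Wnt8b. They read 5′ to 3′ on the strand of the gene (plus for Wnt9a, Wnt1 and Wnt8b, minus for Wnt7a), with each CG in capitals.
Wnt9a: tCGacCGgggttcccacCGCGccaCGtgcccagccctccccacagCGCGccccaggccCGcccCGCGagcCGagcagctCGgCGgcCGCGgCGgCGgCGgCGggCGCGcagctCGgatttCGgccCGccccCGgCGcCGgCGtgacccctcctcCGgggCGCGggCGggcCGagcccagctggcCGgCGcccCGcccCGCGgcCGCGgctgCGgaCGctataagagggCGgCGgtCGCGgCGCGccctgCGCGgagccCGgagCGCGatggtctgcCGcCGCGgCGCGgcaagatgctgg
Wnt7a: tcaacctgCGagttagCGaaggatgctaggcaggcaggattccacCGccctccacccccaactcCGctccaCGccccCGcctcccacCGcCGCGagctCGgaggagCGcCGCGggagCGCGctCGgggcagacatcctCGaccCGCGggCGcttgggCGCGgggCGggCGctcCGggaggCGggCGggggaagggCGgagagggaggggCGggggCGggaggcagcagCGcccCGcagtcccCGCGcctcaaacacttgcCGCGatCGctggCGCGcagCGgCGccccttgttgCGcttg
Wnt1: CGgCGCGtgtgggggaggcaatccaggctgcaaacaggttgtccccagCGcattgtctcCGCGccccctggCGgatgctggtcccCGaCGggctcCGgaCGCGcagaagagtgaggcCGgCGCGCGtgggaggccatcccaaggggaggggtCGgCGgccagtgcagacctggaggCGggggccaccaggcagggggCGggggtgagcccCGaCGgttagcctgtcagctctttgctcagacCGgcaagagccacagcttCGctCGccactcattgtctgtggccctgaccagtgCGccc
Wnt8b: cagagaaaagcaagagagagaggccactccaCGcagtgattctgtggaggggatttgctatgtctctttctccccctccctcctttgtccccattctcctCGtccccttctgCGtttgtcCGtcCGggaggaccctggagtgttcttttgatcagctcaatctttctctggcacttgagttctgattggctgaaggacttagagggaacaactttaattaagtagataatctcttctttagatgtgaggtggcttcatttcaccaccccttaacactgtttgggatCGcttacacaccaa
The CpG-dense Wnt7a promoter thus belongs to the window in which the Ring1B list had no peak. The other 7 matched promoters, with 6 to 58 CG dinucleotides, belong to windows with Ring1B peaks, and that of Wnt8b, with 6, is near the median of the table. No peak is placed on these sequences, since their positions in mm9 were not at hand.

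Ring1B peaks were found in 6 of the 7 windows and Zrf1 peaks in 5. For comparison, the autosomes and the X chromosome were cut into adjoining tiles of the same lengths as the windows. Of these tiles, 24.8% (90 kb), 31.1% (130 kb), 32.2% (140 kb) and 37.0% (180 kb) held a Ring1B peak, and 25.7%, 32.4%, 33.7% and 38.6% held a Zrf1 peak. Tiles were not chosen for holding genes, whereas the windows were drawn around genes, so the windows differ from the tiles in more than the presence of a Wnt gene. Both proteins had peaks in 4 windows with 7 genes (Wnt10b and Wnt1, Wnt9b and Wnt3, Wnt3a and Wnt9a, Wnt7b), Ring1B alone in the windows of Wnt8b and Wnt5a, and Zrf1 alone in that of Wnt7a. A Ring1B peak overlapped a Zrf1 peak in 3 windows, which hold Wnt10b, Wnt1, Wnt3a, Wnt9a and Wnt7b, while 5.77% (90 kb), 7.98% (130 kb), 8.41% (140 kb) and 10.2% (180 kb) of the tiles held such an overlap.

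**Figure D1:**
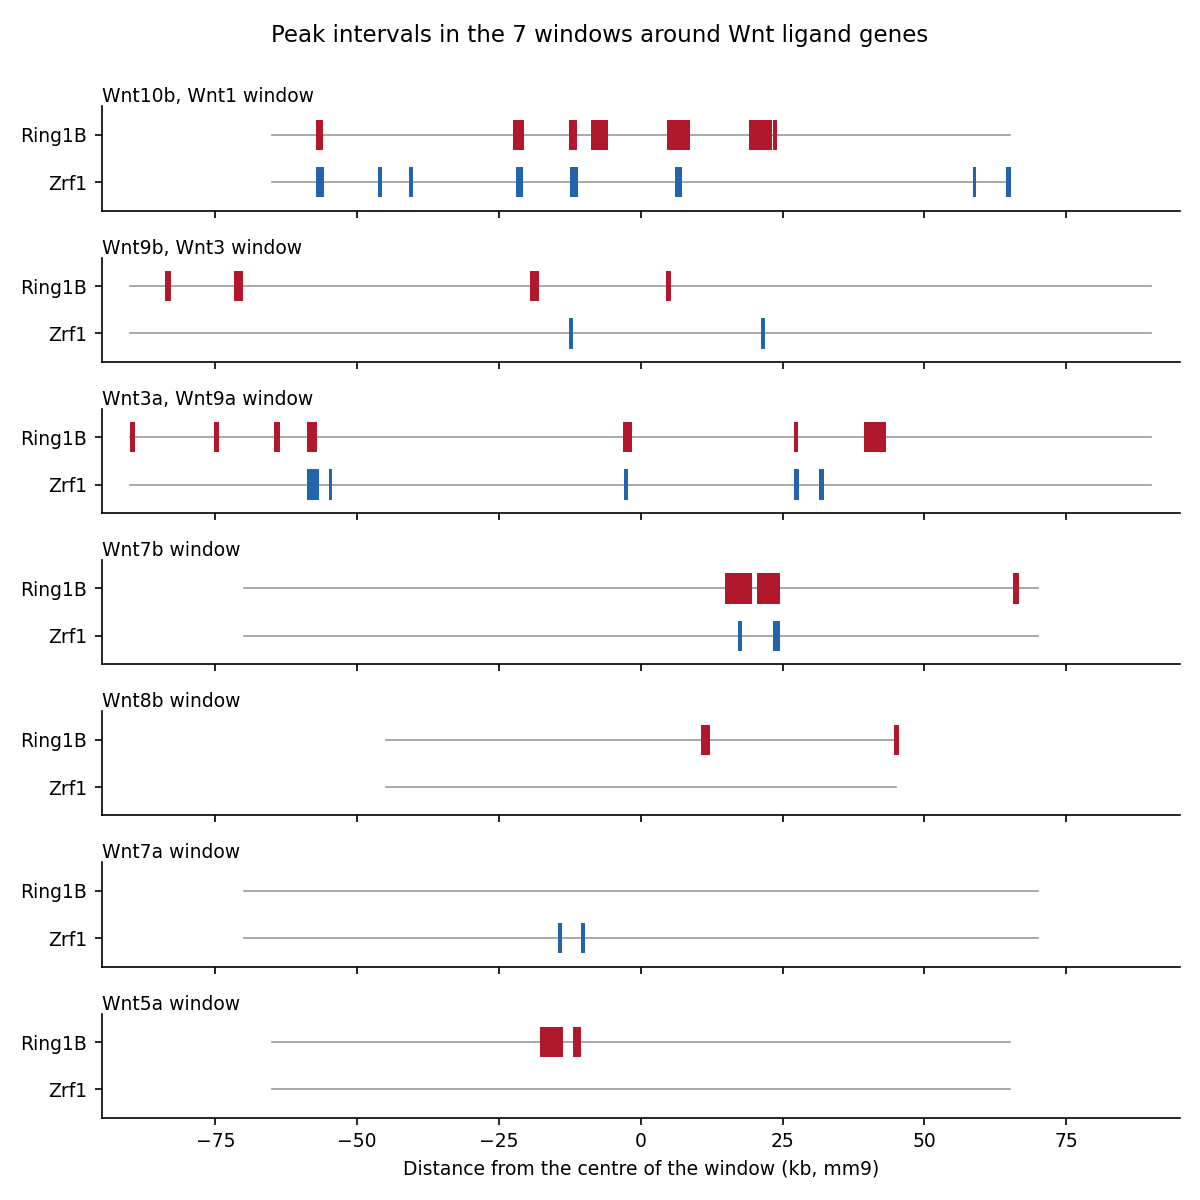
Map of the 7 windows, aligned at their centres, with distance in kb on the horizontal axis. The grey line is the extent of the window, the upper row of boxes the Ring1B peaks and the lower row the Zrf1 peaks, drawn to scale; the Wnt8b and Wnt5a windows have no Zrf1 box and the Wnt7a window no Ring1B box.

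The windows differed widely in how much of their sequence lay inside peaks. Ring1B peaks covered 12.9% of the Wnt10b and Wnt1 window, 6.83% of the Wnt7b window, 6.08% of the Wnt3a and Wnt9a window, 4.23% of the Wnt5a window, 2.89% of the Wnt9b and Wnt3 window and 2.14% of the Wnt8b window. In the same order, 0.177%, 1.17%, 1.33%, 3.39%, 5.97% and 10.7% of the tiles of equal length were covered by Ring1B at least as much. The mean over tiles was 0.678 or 0.679%, but most tiles hold no Ring1B peak. For Zrf1 the order differed: 6.13% in the Wnt10b and Wnt1 window, 2.99% in the Wnt3a and Wnt9a window, 1.37% in the Wnt7b window, 0.983% in the Wnt7a window and 0.757% in the Wnt9b and Wnt3 window. In that order, 0.197%, 1.68%, 9.17%, 14.5% and 18.7% of tiles were covered by Zrf1 at least as much, and the mean over tiles was 0.401 or 0.402%. Over all 990 kb, Ring1B covered 49.9 kb (5.04%) and Zrf1 18.0 kb (1.82%). The Wnt10b and Wnt1 window alone held 16.7 kb of the Ring1B and 7.96 kb of the Zrf1 sequence; without it 33139 bp and 10038 bp remained.

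**Figure D2:**
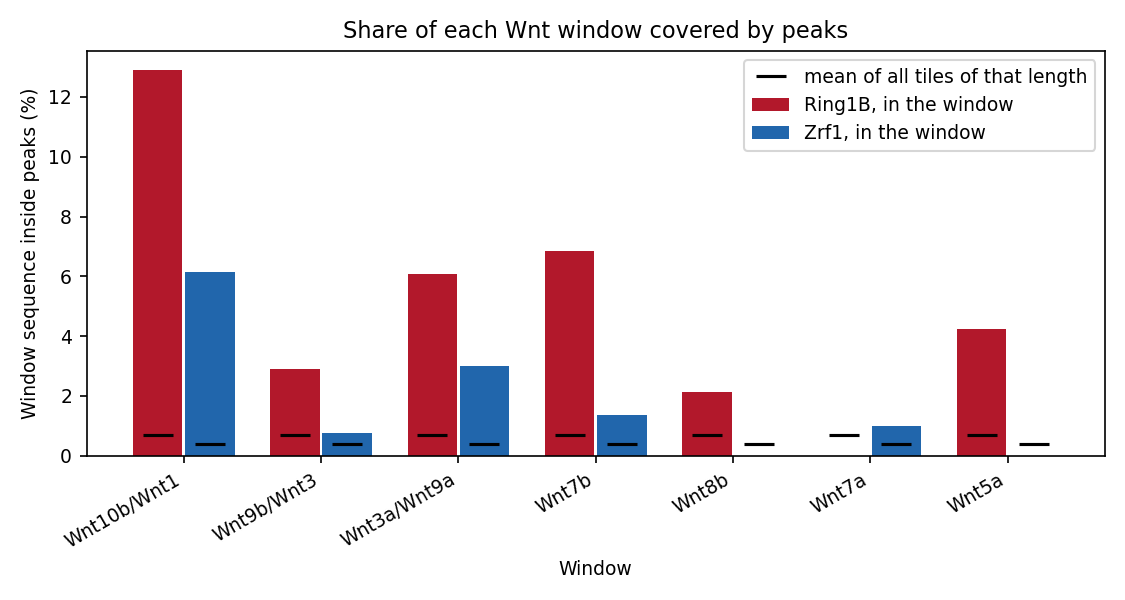
Share of the sequence of each window that lies inside peaks, in percent, for Ring1B (red bars) and Zrf1 (blue bars), with the mean over all tiles of the same length as a black dash. The Wnt10b and Wnt1 window stands highest for both proteins, at 12.9% and 6.13%; bars have no error because each antibody had 1 library.

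The Wnt10b and Wnt1 window was the most densely occupied. Wnt1 is the signal of the midbrain-hindbrain boundary and the dorsal midline, and Wnt10b is known for its role in bone and fat cell formation. The window held 7 Ring1B peaks, a number reached in 0.522% of tiles of 130 kb, and 8 Zrf1 peaks, reached in 0.133%. Of its Ring1B peaks 4 lay on Zrf1. At chr15:98557661-98558977 a Ring1B peak of 1316 bp nearly coincided with a Zrf1 peak of 1379 bp, their starts 18 bp and their ends 81 bp apart. At chr15:98602399-98603831 a Ring1B peak of 1432 bp and a Zrf1 peak of 1379 bp had starts 119 bp and ends 66 bp apart. At chr15:98592428-98594409 a Zrf1 peak of 1304 bp lay wholly inside a Ring1B peak of 1981 bp.

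The fourth overlap of that window had another shape. A Ring1B peak of 4049 bp, chr15:98619572-98623621, contained a Zrf1 peak of 1080 bp, chr15:98621099-98622179, whose centre was 42.5 bp from its own, so Zrf1 covered 26.7% of the Ring1B peak and lay at its middle. The other 2 wide Ring1B peaks had no Zrf1: one of 3070 bp at chr15:98606211-98609281, 2314 bp from the nearest Zrf1 peak, and one of 4104 bp at chr15:98634099-98638203, 11920 bp from it. The last was followed after 103 bp by a Ring1B peak of 766 bp. Zrf1 in turn had 4 peaks of 580 to 874 bp that were off Ring1B, 2 of them between the first and the second overlap (chr15:98568669-98569393 and chr15:98574055-98574903) and 2 at the right edge of the window (chr15:98673546-98674126 and chr15:98679330-98680204). The unshared Zrf1 peaks were thus narrower than each of the 4 shared ones in this window, which measured 1080 to 1379 bp.

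The Wnt3a and Wnt9a window held 8 Ring1B and 5 Zrf1 peaks, 3 of each shared. Wnt3a is a canonical ligand needed for hippocampal and tail formation, and Wnt9a is known from joint development. The widest Zrf1 peak of all the windows, 2055 bp at chr11:59021188-59023243, lay here; it started 7 bp after and ended 316 bp after a Ring1B peak of 1746 bp. A Zrf1 peak of 859 bp lay wholly inside a Ring1B peak of 1573 bp at chr11:59076924-59078497. At chr11:59106915-59107856 the order of widths was turned, with a Ring1B peak of 757 bp wholly inside a Zrf1 peak of 941 bp and the centres 1 bp apart.

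The widest Ring1B peak of the Wnt3a and Wnt9a window was not shared. It measured 3950 bp at chr11:59119262-59123212, and the nearest Zrf1 peak ended 6939 bp before it, at chr11:59111461-59112323. The other 4 unshared Ring1B peaks were narrow, 545 to 953 bp, between chr11:58989991 and chr11:59016474, and 2 of them were only 38 bp apart. The other unshared Zrf1 peak, 665 bp at chr11:59024964-59025629, lay 2037 bp from Ring1B.

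In the Wnt7b window Ring1B formed a nearly unbroken run. Wnt7b is a canonical ligand known for lung and kidney growth and for blood vessel formation in the nervous system. Ring1B peaks of 1074, 3400 and 4051 bp followed each other with gaps of 144 and 922 bp, and together covered 88.9% of the 9591 bp of chr15:85404910-85414501. Both Zrf1 peaks of the window lay on this run. One of 699 bp, chr15:85407182-85407881, lay wholly inside the Ring1B peak of 3400 bp and covered 20.6% of it. The other, 1218 bp at chr15:85413308-85414526, lay at the right edge of the Ring1B peak of 4051 bp, with its centre 1442 bp from the Ring1B centre and its end 25 bp past it. The fourth Ring1B peak, 1030 bp at chr15:85455681-85456711, lay 22890 bp from Zrf1.

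In the Wnt9b and Wnt3 window both proteins had peaks and none overlapped, although 1 Ring1B peak on Zrf1 was added when the window was widened by 50 kb on both sides. Wnt3 is required for gastrulation, and Wnt9b for kidney tubule formation. The 4 Ring1B peaks measured 1180, 1576, 1580 and 872 bp and lay between chr11:103546071 and chr11:103635302. The 2 Zrf1 peaks, of 701 bp at chr11:103617324-103618025 and 662 bp at chr11:103651163-103651825, lay 5251 and 15861 bp from the nearest Ring1B peak. All of these Ring1B peaks were below the width of the widest 10% of their list, which began at 2348 bp. Of tiles of 180 kb, 5.67% held at least 4 Ring1B peaks and 19.3% at least 2 Zrf1 peaks.

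The windows of Wnt5a and Wnt8b had Ring1B peaks and no Zrf1 peak. Wnt5a is the best known non-canonical ligand, acting on cell polarity, and Wnt8b marks the dorsal telencephalon and hippocampal primordium. At Wnt5a a Ring1B peak of 4013 bp, chr14:29317184-29321197, and one of 1485 bp, chr14:29322960-29324445, were separated by 1763 bp. The nearest Zrf1 peak was far outside, 409 kb from the left edge of the window. At Wnt8b the Ring1B peaks measured 1626 bp (chr19:44585636-44587262) and 892 bp (chr19:44619698-44620590), the second crossing the right edge of the window. There a Zrf1 peak of 525 bp, chr19:44527451-44527976, lay 2.02 kb outside the left edge, so the absence of Zrf1 from this window depends on where the edge is set. Of the tiles of 90 kb, 25.7% held a Zrf1 peak, so a window of this size without one is common. A missing peak at unknown depth does not show missing binding.

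Wnt7a, a canonical ligand closely related to Wnt7b and known from limb patterning and brain vessels, had Zrf1 peaks in its window and no Ring1B peak. The window held Zrf1 peaks of 701 bp (chr6:91325387-91326088) and 675 bp (chr6:91329514-91330189), separated by 3426 bp. Of tiles of 140 kb, 14.9% held at least 2 Zrf1 peaks and 32.2% held any Ring1B peak, so a window of this size without Ring1B is common. The first Zrf1 peak lay 88190 bp and the second 91947 bp from the Ring1B peak of the list nearest to each. The Ring1B peak nearest to an edge of the window was on its right, 2732 bp wide at chr6:91422136-91424868, and began 12.1 kb past that edge. It was the Ring1B peak nearest to the second Zrf1 peak. The Ring1B peak nearest to the first Zrf1 peak lay on the left of the window. The related pair Wnt7a and Wnt7b thus differed in these lists, with no Ring1B peak in one window and 4 in the other, and this difference has no replicate behind it. The absence of Ring1B from the Wnt7a window also depends on where the edge is set. With windows widened by 50 kb on both sides, the Wnt7a window held 2 Ring1B peaks and the Wnt7b window 8.

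Over all windows, 9 of the 27 Ring1B peaks lay on Zrf1, which is 33.3% (exact Clopper-Pearson 95% interval 16.5 to 54.0%), and 9 of the 19 Zrf1 peaks lay on Ring1B, which is 47.4% (24.4 to 71.1%). In the whole lists the shares were 16.6% and 17.0%. The interval for Ring1B includes the share of its list at its lower end, and that for Zrf1 lies above its own. Both intervals cover counting error only and treat neighbouring peaks as independent, which they are not, and no test was made. The windows were also chosen with earlier results of these data known. Of the 9 overlaps 4 came from the Wnt10b and Wnt1 window. Without that window 5 of 20 Ring1B peaks (25.0%) and 5 of 11 Zrf1 peaks (45.5%) were shared. Those shares rest on fewer peaks and have no interval here, so whether they stand apart from the list shares is not known. Off the overlaps, 6 of 18 Ring1B peaks had a peak of the other protein at most 10 kb away, against 18.3% of such peaks in the Ring1B list. For Zrf1 it was 4 of 10, against 16.4% in its list. Neither was tested or given an interval, and the 6 Ring1B peaks include a pair 38 bp apart near the same Zrf1 peak.

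Wide Ring1B peaks lay in some of the Wnt windows. The median width of the 27 Ring1B peaks was 1485 bp, with quartiles of 922.5 and 2525.5 bp, against 1324 bp (quartiles 987 and 1764 bp) in the whole list. Of the 27, 7 belonged to the widest 10% of the list, or 25.9% (exact 95% interval 11.1 to 46.3%), against 10.0% of the list. Their widths ran from 3070 to 4104 bp, while the next widest Ring1B peak of the windows had 1981 bp. They lay in the windows of Wnt10b and Wnt1 (3), Wnt7b (2), Wnt3a and Wnt9a (1) and Wnt5a (1). Of these 7 wide peaks 3 lay on Zrf1 (exact 95% interval 9.90 to 81.6%), against 21.6% of all Ring1B peaks of that width class. That interval includes the list share, but 7 peaks are too few to show whether the wide peaks stand apart from their class. Of the 20 narrower Ring1B peaks 6 lay on Zrf1 (11.9 to 54.3%), and no list share of narrower peaks is given here. Without the Wnt10b and Wnt1 window, 4 of 20 Ring1B peaks were in the widest 10%, a share given without an interval. Neighbouring peaks are not independent here either, and no test was made. Of the 19 Zrf1 peaks 1 (5.26%) was among the widest 10% of the Zrf1 list, which holds 10.0% by that choice, and their median width was 859 bp against 796 bp in the list.

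**Figure D3:**
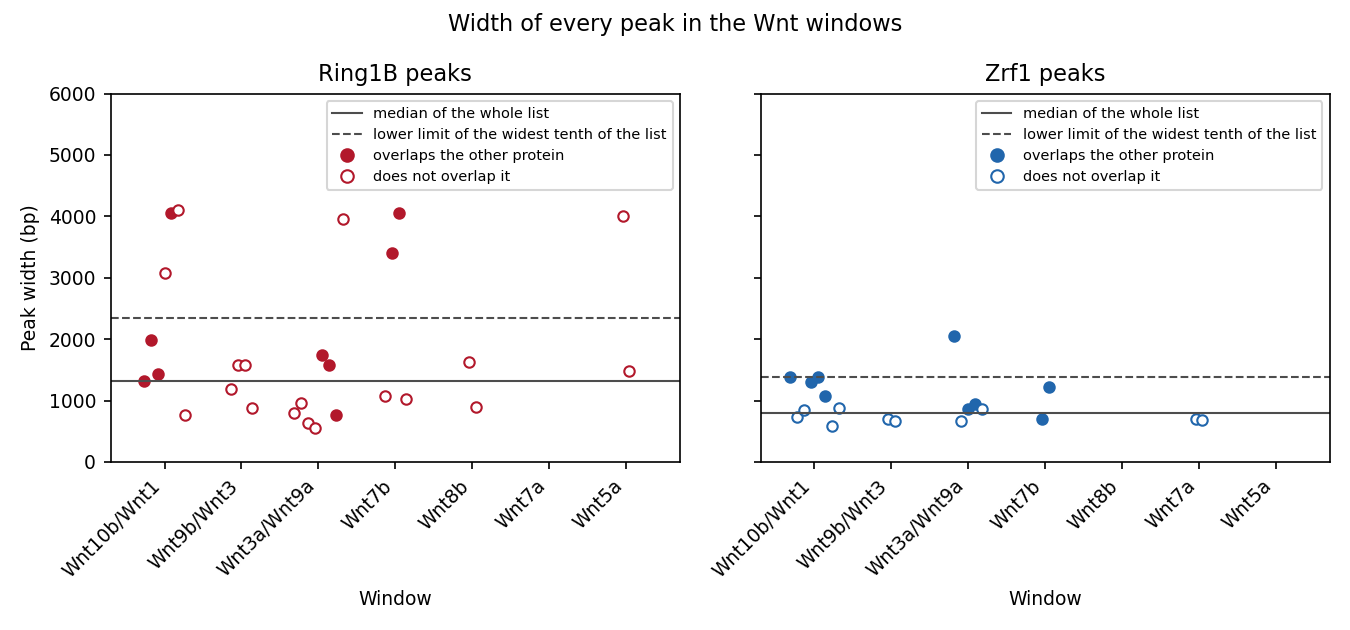
Width in bp of each Ring1B peak (left) and Zrf1 peak (right) by window; filled points overlap a peak of the other protein and open points do not. The solid line is the median of the whole list and the dashed line the lower limit of its widest 10%; the 7 Ring1B points above the dashed line measure 3070 to 4104 bp and 3 of them are filled.

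Shared Zrf1 peaks in the windows measured 699 to 2055 bp with a median of 1218 bp, and unshared ones 580 to 874 bp with a median of 701 bp, so the ranges overlapped. Shared Ring1B peaks ran from 757 to 4051 bp with a median of 1746 bp. Unshared Ring1B peaks ran from 545 to 4104 bp, almost the same range, with a lower median of 1127 bp. No difference in width between shared and unshared peaks was tested.

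The 9 overlapping pairs took 2 forms. In 6 pairs the overlap made up at least 50% of the sequence covered by either peak, from 54.6 to 92.9%, and the Ring1B peaks of these pairs measured 757 to 1981 bp. In the other 3 pairs, one in the Wnt10b and Wnt1 window and 2 in the Wnt7b window, the overlap made up 20.6 to 29.3%, and a Ring1B peak 3.33 to 4.86 times as wide as the Zrf1 peak enclosed it wholly or nearly so. The 50% limit was set after the pairs had been seen. Over all 1995 overlapping pairs of the lists 73.9% passed it, and 37.2% of the 277 pairs with a Ring1B peak of the widest 10% did, against 0 of the 3 here. With a Ring1B peak at least 3.33 times as wide as the Zrf1 peak, the overlap cannot reach that limit. The 0 of 3 is thus set by the width ratios, and no comparison with pairs of like widths was made. In 4 pairs the Zrf1 peak lay wholly inside the Ring1B peak and in 1 the reverse held, and the median distance between centres was 162 bp, close to the 165 bp of all pairs.

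**Figure D4:**
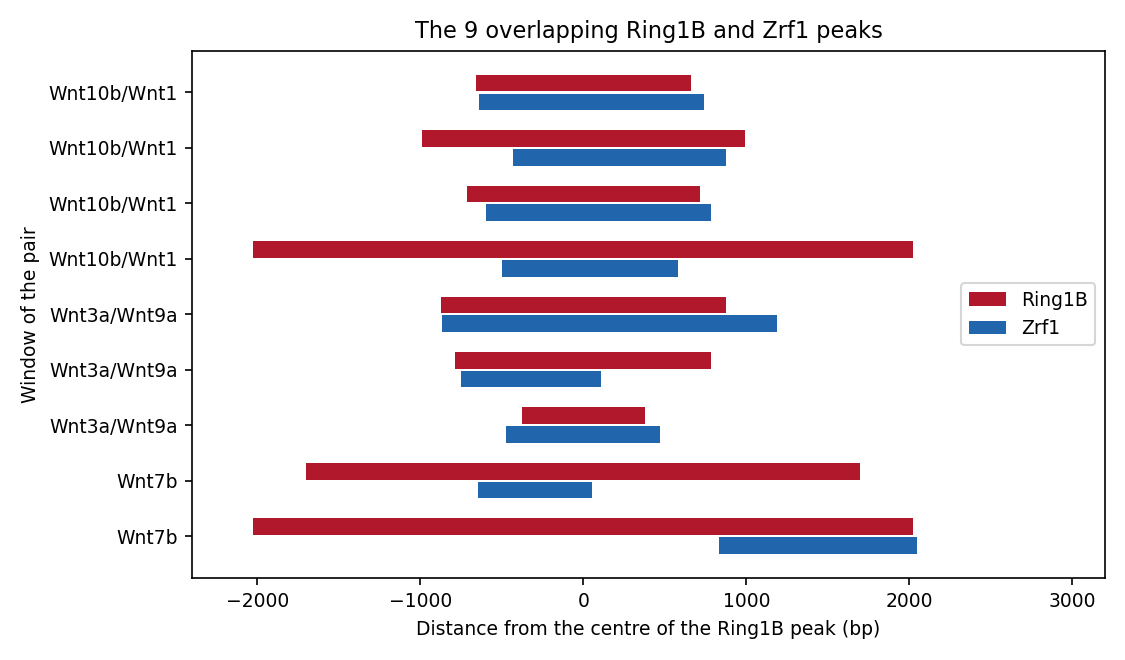
The 9 overlapping pairs, each drawn to scale around the centre of its Ring1B peak (red), with the Zrf1 peak (blue) below it and distance in bp on the horizontal axis. The wide Ring1B peaks of 4049, 3400 and 4051 bp each face a Zrf1 peak of 699 to 1218 bp, while in the other 6 pairs the Ring1B peak measures 757 to 1981 bp and the Zrf1 peak 859 to 2055 bp.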

How the data were processed

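Binding of Zrf1 and Ring1B was measured by ChIP-seq in 1 library each. The authors deposited each peak list as chromosome, start and end with no score, signal or gene name; the lists were assigned to libraries by the antibody they are named for. Per the submitters' processing notes, Bowtie 0.12.7 and MACS 1.4.2 were used with build mm9; the sources used here do not give the threshold, control or filters. Coordinates are printed as deposited, and whether starts count from 0 or 1 is not given.

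All 10 genes are named by window, and the genes, windows and limits were chosen with earlier results of these data known. Other Wnt ligands, receptors and targets were not placed, since no mm9 annotation was used here. A peak counted as shared at 1 bp of overlap. Tiles came from the mm9 chromosome lengths in GenomeInfoDb 1.38.1. Shares of shared peaks and of wide Ring1B peaks over all windows carry exact binomial 95% intervals. Counts of shared peaks were checked against bedtools 2.31.1 and tested on simulated data. Computations used SciPy 1.17.1 and NumPy 2.4.6 under Python 3.11.15, and plots matplotlib 3.10.9. Alternatives changed window edges, peak width, merging and the overlap rule.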

Additional observations from a re-analysis of the deposited data

How the results depend on the processing

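Of 79 alternative values, 65 stayed within 1.5 times the reported count or length, or within the reported interval for a share, and 14 did not. Leaving out the Wnt10b and Wnt1 window was added after seeing the data; the other alternatives were planned. With windows widened by 50 kb on both sides, 41 Ring1B and 34 Zrf1 peaks were counted, Zrf1 covered 31312 bp, 2 Zrf1 peaks were among the widest 10% of their list, and 5 windows held an overlap, those of Wnt9b and Wnt3 and of Wnt7a being added with 1 Ring1B peak on Zrf1 each. The Wnt8b window then held 3 Zrf1 peaks and the Wnt7a window 2 Ring1B peaks, while the Wnt5a window still held no Zrf1 peak. With peaks of at least the median width of their list, 15 Ring1B and 11 Zrf1 peaks were left, and 3 windows held Zrf1. Without the Wnt10b and Wnt1 window, Ring1B covered 33139 bp and Zrf1 10038 bp, 11 Zrf1 peaks remained, 5 peaks of each list were shared, and 4 Ring1B peaks were among the widest 10%. These changes follow from more sequence, fewer peaks or 1 window fewer entering the count. The share of Ring1B peaks on Zrf1 ran from 22.2 to 40.0% and that of Zrf1 peaks on Ring1B from 31.6 to 54.5% over the alternatives. No paired analysis was possible because each antibody had 1 library. Depth is unknown, so a window without a peak does not show a lack of binding.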
